A study of Mus musculus with 16 samples.

Results

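The change that an odor made in how olfactory sensory neuron transcripts were split between the 2 sorted fractions of the same mice was measured in 8 pools, which hold all 16 libraries of the series. Each pool gave a library with more S100a5 and a library with less, and for each gene the deposited log2 value in the S100a5-low library was subtracted from that in the S100a5-high library. The 4 differences of odor pools were then set against the 4 of vehicle pools, and odor minus vehicle is called the shift. S100a5 itself chose the direction of each difference, so its values and the fraction differences as such are given as a description with no test. The table held 19505 named genes, of which 1106 were receptor genes (1091 Olfr, odorant receptors, and 15 Taar, trace amine-associated receptors) and 18399 were other genes.

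All mice were S100a5-tauGFP mice of strain C57BL/6, of both sexes and 7 to 12 weeks old, 24 in all. Each mouse sat alone in a clean air chamber for 40 h, and from 26 h on pulses of 10 s came every 20 min. Odor mice received isoamyl acetate and whiskey lactone together, and vehicle mice received filtered air. The olfactory mucosa was dissociated and cells were sorted for GFP in pools of 3 mice, so a library averages 3 animals and 1 pool is 1 replicate. The sample title and the cell type tag name opposite fractions in all 16 libraries. The S100a5-high library was titled GFP- in 7 pools and titled GFP+ in vehicle pool 3, so results are also given for the 7 pools without that pool.

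Each mature olfactory sensory neuron expresses 1 receptor gene, and an odorant that binds the receptor depolarizes the neuron through cyclic AMP. S100a5, a calcium-binding protein, is induced by that activity, so in these mice GFP marks neurons that fired recently. The assay sorts the marked neurons and asks which receptor transcripts are enriched among them after an odor. A receptor that answers the odor moves from the unmarked to the marked fraction, since the neurons that carry it move there. Isoamyl acetate is a banana-scented ester and whiskey lactone a coconut-scented lactone of oak wood. Because the mixture was given as a whole, the response to one compound cannot be told apart from the response to the other.

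S100a5 differed between the libraries of a pool by 0.65, 1.55, 1.50 and 0.93 in odor pools 1 to 4, and by 1.86, 1.44, 1.38 and 0.80 in vehicle pools 1 to 4. The 2 ranges overlapped, with means of 1.16 ± 0.44 (SD, n = 4) in odor and 1.37 ± 0.43 (SD, n = 4) in vehicle. The S100a5-high libraries stood at 16.04 to 16.66 in odor and 16.27 to 16.44 in vehicle. Omp, the marker protein of mature olfactory sensory neurons, had a mean level of 18.55 over the 16 libraries and a shift of -0.10 ± 0.17 (SE). The S100a5-low libraries held more RNA of myeloid cells: the median difference over their 13 markers ran from -4.34 to -7.11 per pool, with the smallest size in vehicle pool 3.

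Olfr221 showed the largest shift of all 19505 genes and moved from the S100a5-low to the S100a5-high side under odor. Its level in the S100a5-high libraries was 12.78, 13.18, 12.77 and 12.78 in odor pools 1 to 4 and 9.55, 10.32, 10.08 and 10.01 in vehicle pools 1 to 4. In the S100a5-low libraries it was 8.05, 9.03, 7.79 and 9.38 in odor and 10.80, 11.31, 11.13 and 9.69 in vehicle. Every odor value lay above every vehicle value on the S100a5-high side and below every vehicle value on the S100a5-low side. The differences within pools were 4.73, 4.15, 4.98 and 3.40 in odor against -1.26, -0.98, -1.04 and 0.32 in vehicle. The shift was 5.06 ± 0.41 (SE; limma adjusted p = 0.00224), and 4.96 in the 7 pools without vehicle pool 3 (adjusted p = 0.0203). When the 1106 receptors were ranked by their difference from the highest down, Olfr221 stood at 7, 27, 12 and 32 in the odor pools and at 902, 785, 812 and 473 in the vehicle pools.

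Olfr170 was the only other gene that passed the threshold, and it too was higher in odor. Its differences were 1.52, 1.49, 1.45 and 1.80 in odor pools 1 to 4 and 0.01, -0.54, -0.46 and -0.84 in vehicle pools 1 to 4. The odor pools lay close together and all above the vehicle pools, and the shift was 2.02 ± 0.22 (SE; limma adjusted p = 0.0183). Without vehicle pool 3 the shift was again 2.02, but the adjusted p was 0.116. Leaving out odor pool 1, 2, 3 or 4 gave adjusted p of 0.0994, 0.0663, 0.0909 and 0.108, and leaving out vehicle pool 2 or 4 gave 0.135 and 0.0745, so of the single pools only vehicle pool 1 could be left out without losing the call. With the replicate number as a block across treatments the adjusted p was 0.140 at the same shift. In the S100a5-high libraries Olfr170 stood at 11.47, 11.58, 11.96 and 11.63 in odor and 10.69, 10.22, 10.37 and 10.67 in vehicle. In the S100a5-low libraries it stood at 9.96, 10.09, 10.51 and 9.83 in odor and 10.68, 10.76, 10.83 and 11.51 in vehicle. The ranks of Olfr170 among receptors were 244, 301, 332 and 167 in odor and 703, 710, 732 and 731 in vehicle, which places it in the lower part of the order in vehicle and in the upper part, below its top, in odor.

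**Figure D1:**
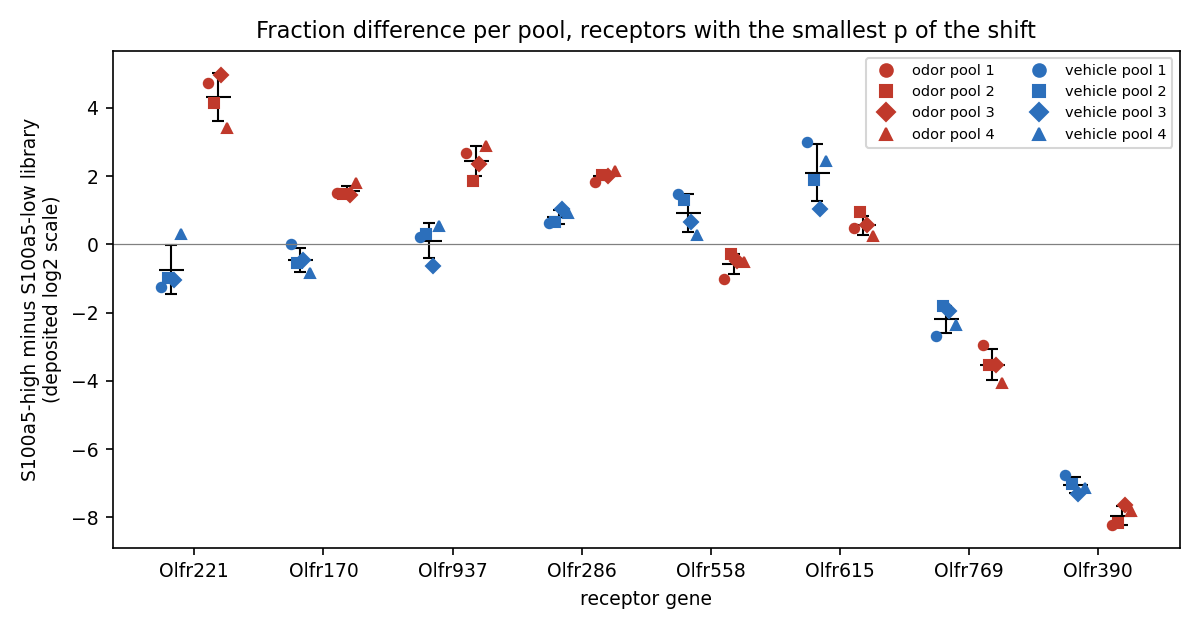
Fraction difference (S100a5-high minus S100a5-low library, deposited log2 scale, vertical axis) of 8 receptors, the 4 with the smallest p among positive and the 4 with the smallest p among negative shifts (horizontal axis). Each marker is 1 pool, blue for vehicle and red for odor, with the mean and SD over 4 pools as bars. The odor pools of Olfr221 sit between 3.40 and 4.98, all above its vehicle pools.

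The calls were 2 of 1106 receptors (0.181%), against 0 of 18399 other genes and 2 of 19505 genes in all (0.0103%). None of the calls was lower in odor. At an unadjusted p under 0.05 the limma fit held 75 receptors (6.78%), of which 40 were higher (3.62%) and 35 lower (3.16%) in odor, and 643 other genes (3.49%). Over all genes these shares were 3.68% in either direction, 2.08% higher and 1.6% lower. The 75 receptors leaned to the dim end: 34 of the 369 dimmest, 25 of the 368 of middle level and 16 of the 369 brightest. In the 7 pools 1 receptor was called (0.0904%; 0.00513% of all genes), Olfr221, and 0 other genes. There 78 receptors (7.05%), 614 other genes (3.34%) and 3.55% of all genes were at an unadjusted p under 0.05. Receptors varied more between pools than other genes did: the median SD over the 4 odor pools was 0.61 for receptors and 0.32 for other genes. Shifts larger than 1 in size were counted for 37 receptors (3.35%), 18 up (1.63%) and 19 down (1.72%), and for 43 other genes (0.234%). Over all genes the shares were 0.41% in either direction, 0.277% up and 0.133% down.

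Olfr937 and Olfr286 came next in p and did not pass. Olfr937 had differences of 2.69, 1.86, 2.37 and 2.88 in odor and 0.22, 0.32, -0.63 and 0.55 in vehicle. Its shift of 2.33 ± 0.30 (SE; limma adjusted p = 0.0718) was larger than that of Olfr170, with wider spread between pools. It passed the threshold in 1 of 17 alternatives, the fit with an intensity trend (adjusted p = 0.0257). Olfr286 had 1.84, 2.04, 1.99 and 2.14 in odor and 0.62, 0.66, 1.04 and 0.91 in vehicle, a shift of 1.19 ± 0.18 (SE; limma adjusted p = 0.253). Its transcripts were thus on the S100a5-high side in all 8 pools, and the 4 odor values were the highest 4.

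The remaining 6 of the 10 positive receptors with the smallest p were Olfr212, Olfr213, Olfr1411, Olfr965, Olfr750 and Olfr905, with shifts from 0.87 to 1.14 and limma adjusted p of 0.999. Olfr212 (0.46, 0.83, 0.97 and 0.41 in odor; 0.03, 0.05, -0.62 and -0.70 in vehicle) and Olfr213 belong to the same receptor family, MOR119, and their odor pools lay above their vehicle pools. Olfr750 stayed far on the S100a5-low side in every pool, at -4.12 ± 0.54 (SD, n = 4) in odor and -5.09 ± 0.43 (SD, n = 4) in vehicle. Olfr965 and Olfr905 were far on the other side in both treatments, at 3.50 and 3.98 in odor and 2.50 and 3.02 in vehicle. Odor minus vehicle was 0.12 and 0.01 in their S100a5-high libraries and -0.88 and -0.95 in their S100a5-low libraries. The S100a5-low odor levels reached below the negative control median of 5.46, at 5.17 to 6.75 for Olfr965 and 5.13 to 5.65 for Olfr905. So did the S100a5-low odor levels of Olfr1411, 4.47 to 5.72, and the S100a5-high vehicle levels of Olfr750, 4.37 to 6.87. Without vehicle pool 3 the rule brought in Olfr1168, Olfr502, Olfr995, Olfr494 and Olfr1154, with 7-pool shifts of 1.03 to 1.42, and Olfr830, at -1.37, none called. The mean level of Olfr830 (5.03) lay below the negative control median of 5.46 and that of Olfr995 (5.53) just above it.

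The 5 negative receptors with the smallest p were Olfr558, Olfr769, Olfr390, Olfr615 and Olfr1361, none of them called (limma adjusted p = 0.999). Olfr558 was on the S100a5-low side in all odor pools (-1.00, -0.29, -0.48 and -0.53) and on the S100a5-high side in all vehicle pools (1.48, 1.30, 0.65 and 0.28). Its shift was -1.50 ± 0.29 (SE), at a mean level of 5.96 that lay just above the negative control median of 5.46. Olfr615 had 0.48, 0.95, 0.56 and 0.25 in odor and 3.00, 1.90, 1.04 and 2.45 in vehicle, a shift of -1.54 ± 0.37 (SE). Its adjusted p without vehicle pool 3 was 0.344 at a shift of -1.89. Olfr390 was among the receptors farthest on the S100a5-low side in every pool, at -7.95 ± 0.28 (SD, n = 4) in odor and -7.05 ± 0.22 (SD, n = 4) in vehicle. Of its shift of -0.90, -0.84 came from the S100a5-high libraries. Its levels there were 4.60 to 5.50 in odor and 5.52 to 6.33 in vehicle, close to the negative control median. The most negative shift of any receptor, picked out after its values were seen, was that of Olfr299, at -1.94 ± 0.69 (SE), with overlapping pools.

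**Figure D2:**
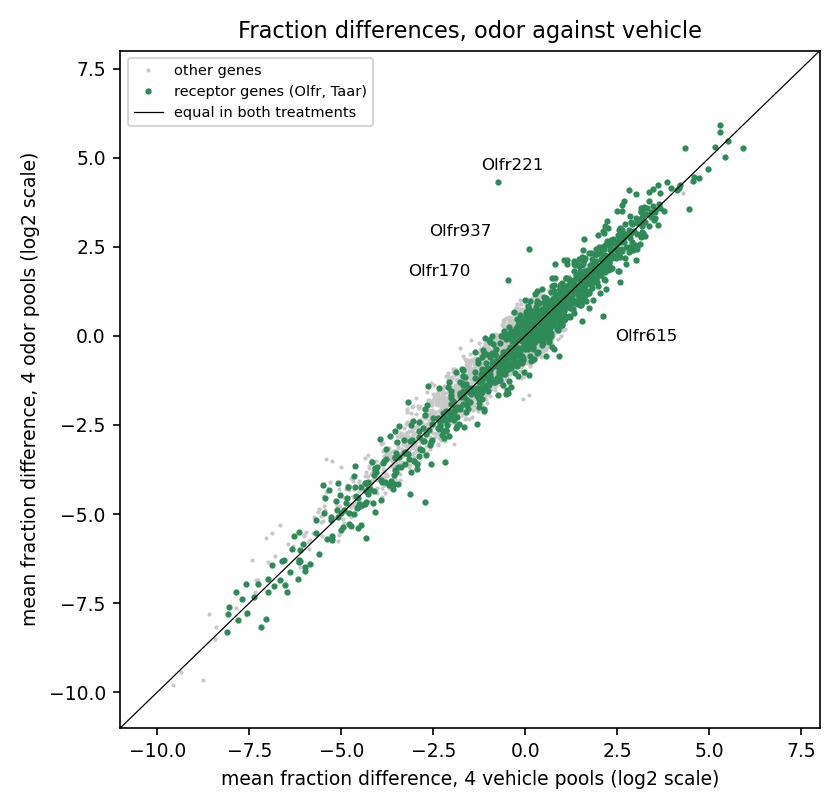
Mean fraction difference of each gene over the 4 vehicle pools (horizontal axis) and the 4 odor pools (vertical axis), both on the deposited log2 scale, with receptors in green, other genes in grey and the line of equal values. Most receptors lie near the line, and Olfr221, at -0.74 in vehicle and 4.31 in odor, lies farthest from it.

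Most receptors with a steady side had the same side in both treatments. Of 1106 receptors, 377 (34.1%) were on the S100a5-high side in all 8 pools and 287 (25.9%) on the S100a5-low side in all 8, against 6.38% and 9.02% of other genes. Since S100a5 set the direction, these shares are a description. No receptor was above 0 in all odor pools and below 0 in all vehicle pools, and 2, Olfr558 and Olfr1249, had the opposite pattern. The shares were 0% and 0.181% of receptors, against 0.147% and 0.168% of other genes, so these counts are not a result about receptors. Olfr221 missed the first pattern by vehicle pool 4 (0.32) and Olfr170 by vehicle pool 1 (0.01).

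The spread of receptor differences was also set out pool by pool. The SD over 1106 receptors was 2.38, 2.44, 2.57 and 2.46 in odor pools 1 to 4 and 2.35, 2.40, 2.53 and 2.40 in vehicle pools 1 to 4. The ranges of the odor and vehicle pools overlapped. The SD over other genes was 0.61 to 0.94. The median receptor difference was 0.14, 0.36, 0.43 and -0.06 in odor and 0.59, 0.17, 0.28 and 0.03 in vehicle, also with overlap. Across receptors, the correlation of differences between 2 pools was 0.915 to 0.925 for pairs of odor pools and 0.909 to 0.920 for pairs of vehicle pools. For an odor with a vehicle pool it was 0.902 to 0.957. Odor and vehicle pools with the same number, 1 to 4, had 0.922, 0.948, 0.957 and 0.940, and those with different numbers 0.902 to 0.924. These are correlations across 1106 genes that share arrays and probe chemistry, and genes are not independent replicates.

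The pools did not overlap for 22 receptors: odor lay above vehicle for 10 (0.904%, against 1.11% of all genes) and below for 12 (1.08%, against 1.05% of all genes). Both shares were near those of all genes, so the count of separated receptors is not a result about receptors. Those above were Olfr221, Olfr937, Olfr170, Olfr286, Olfr212, Olfr750, Olfr213, Olfr167, Olfr427 and Olfr926. The mean levels of Olfr427 (3.27) and Olfr926 (4.71) lay below the negative control median of 5.46. In the 7 pools the counts were 16 above (1.45%, against 2.05% of all genes) and 23 below (2.08%, against 2.41% of all genes). By brightness, shifts over 1 in size were found for 15 of the 369 dimmest receptors, 13 of the 368 of middle level and 9 of the 369 brightest.

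Mouse odorant receptors fall into class I, the older type also found in fish, and class II, and are grouped into MOR families by sequence. RefSeq's gene table (GRCm38.p6) listed all 1106 receptors and gave 1 MOR family for 1056 of them, in 221 families. The median shift was -0.26 for 119 class I receptors and -0.05 for 937 class II receptors, against 0.00 for all genes. All 10 receptors with odor above vehicle were class II, and of the 12 below 5 were class I: Olfr564, Olfr613, Olfr635, Olfr558 and Olfr615. Olfr564 had a mean level of 3.10, below the negative control median of 5.46, and Olfr558 one of 5.96, just above it. As shares, 1.07% of class II receptors lay above and 0.747% below, and 0% and 4.2% of class I receptors, against 1.11% and 1.05% of all genes; most classified receptors are class II, so the first count says nothing particular about class. The class I median minus the class II median was 0.02, -0.22, -0.08 and -0.18 in odor pools 1 to 4 and 0.02, -0.09, -0.03 and 0.25 in vehicle pools 1 to 4. The pools overlapped, and vehicle pool 4 was the highest of the 8.

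No relative or neighbour of the leading receptors was called. Olfr221 was the only measured member of MOR205. Its 4 measured receptor neighbours on either side had shifts of -0.48 to 0.97, the highest being the adjacent Olfr750. Olfr170 shares MOR273 with Olfr169 and Olfr171, which flank it and had shifts of 0.39 and 0.45. The next receptors out, Olfr167, Olfr168, Olfr172 and Olfr173, were at 0.83, 0.58, 0.59 and 0.36, none called, while Olfr166 was at 0.01 and Olfr175 at -0.43. Thus 6 of these 8 neighbours of Olfr170 had shifts between 0.36 and 0.83, and of them only Olfr167 had pools that did not overlap. These bounds were set after the values were seen. Over all 1106 receptors the quartiles of the shift were -0.31 and 0.23, and a joint shift of neighbours was not tested. Transcripts of near-identical receptors can hybridize to each other's probes on an array, and the probe sequences were not examined.

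Olfr937 belongs to MOR171, a large family with 35 other measured members. Their median shift was -0.09, from -0.86 for Olfr944 to 1.00 for Olfr965. The receptors beside Olfr937, Olfr936 and Olfr938, were at 0.43 and -0.61. Olfr286 shares MOR286 with Olfr287 and Olfr288, at 0.37 and 0.42.

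The shift has 2 sides, and they were unequal between genes. For Olfr221, odor minus vehicle was 2.89 ± 0.19 (SE; limma adjusted p = 0.000135) in the S100a5-high libraries and -2.17 ± 0.42 (SE; adjusted p = 0.605) in the S100a5-low libraries. Olfr170 had 1.18 ± 0.17 (SE; limma adjusted p = 0.115) and -0.85 ± 0.22 (SE; adjusted p = 0.741). Olfr937 had 1.09 and -1.25, and Olfr286 had 0.46 and -0.73, with no call on either side. Olfr212 had 0.03 and -0.95, nearly all of it on the S100a5-low side, and Olfr769 had -1.14 and 0.19, nearly all of it on the S100a5-high side, neither called. These values are the parts of which the shift is made, and give it no further support. In these bulk libraries, fewer cells that express a receptor and less of its RNA per cell cannot be told apart.

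On the S100a5-high side, 3 of 19505 genes were called (0.0154%), all higher in odor, and on the S100a5-low side 0 were called. At an unadjusted p under 0.05 limma held 5.77% of all genes on the S100a5-high side and 1136 genes (5.82%) on the S100a5-low side. Beside Olfr221 the calls were Camk2n1, an inhibitor of calcium/calmodulin-dependent kinase II, and Pcdh10, a protocadherin of axon adhesion. All 3 were called in the 7 pools too. Camk2n1 stood at 9.44, 9.17, 9.46 and 9.59 in odor and 7.62, 7.44, 7.09 and 7.32 in vehicle, a difference of 2.05 ± 0.16 (SE; limma adjusted p = 0.000600). Pcdh10 stood at 11.67, 11.83, 11.86 and 11.92 in odor and 8.91, 10.04, 9.19 and 8.67 in vehicle, a difference of 2.62 ± 0.26 (SE; limma adjusted p = 0.00303). For both genes every odor value lay above every vehicle value.

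Unlike Olfr221, Camk2n1 and Pcdh10 had higher values under odor in the S100a5-low libraries as well. There Camk2n1 was 1.04 ± 0.17 (SE; limma adjusted p = 0.465) and Pcdh10 2.12 ± 0.26 (SE; adjusted p = 0.135) above vehicle, neither called. Their shifts were 1.01 ± 0.20 (SE) and 0.49 ± 0.22 (SE), not called (limma adjusted p = 0.999). For Camk2n1 the difference within pools was 0.61, 0.46, 0.18 and 0.47 in odor and -0.23, -0.53, -0.76 and -0.80 in vehicle, above 0 in every odor pool and below 0 in every vehicle pool. For Pcdh10 it was positive in all 8 pools, at 1.62 ± 0.34 (SD, n = 4) in odor and 1.13 ± 0.24 (SD, n = 4) in vehicle, with overlap. Of the activity-raised genes, Kirrel2 was 0.86 above vehicle on the S100a5-high side and 1.18 on the S100a5-low side, Lrrc3b 0.97 and 1.14, and Rab3b -0.07 and 0.18, with no call. In these 3 genes the S100a5-low side had the larger value, unlike in Camk2n1 and Pcdh10.

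**Figure D3:**
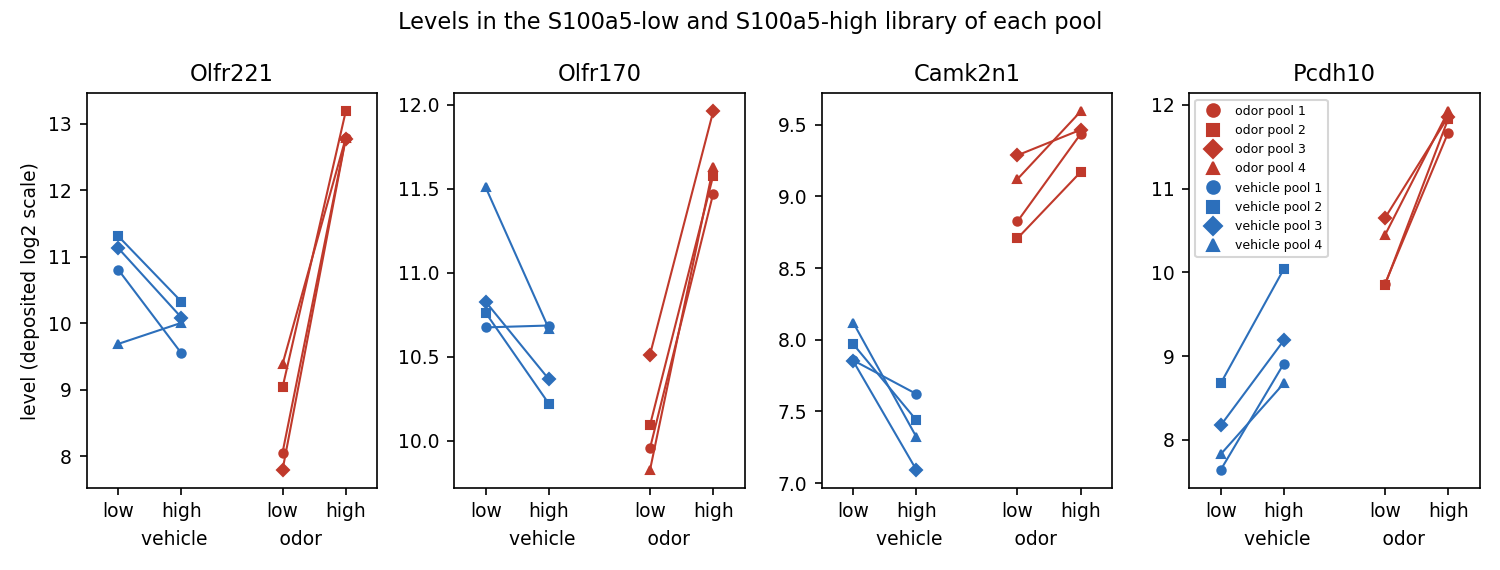
Level (deposited log2 scale, vertical axis, with its own range in each panel) of Olfr221, Olfr170, Camk2n1 and Pcdh10 in the S100a5-low and S100a5-high library of each pool, joined by a line, vehicle in blue and odor in red. The Olfr221 lines climb by 3.40 to 4.98 in odor, while both ends of the Camk2n1 and Pcdh10 lines sit higher in odor than in vehicle.

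**Figure D4:**
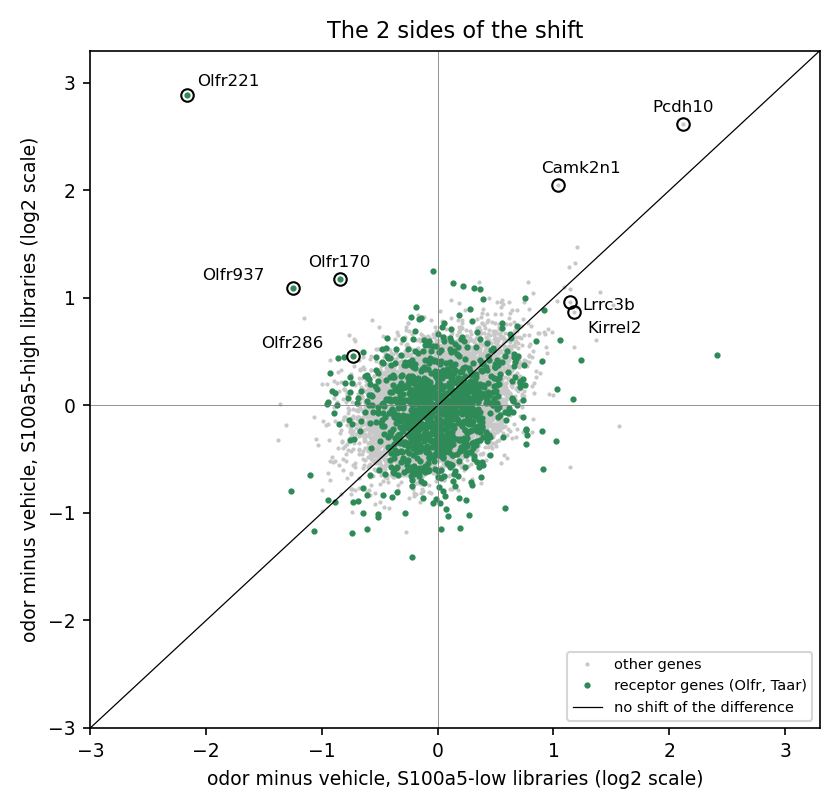
Odor minus vehicle in the S100a5-low libraries (horizontal axis) and in the S100a5-high libraries (vertical axis) for each gene, log2 scale, receptors in green and other genes in grey. On the diagonal the shift is 0. Olfr221 is alone at the upper left (-2.17 and 2.89), and Pcdh10 and Camk2n1 are at the upper right.

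The 15 trace amine-associated receptors, a small family that detects volatile amines, had shifts from -0.83 ± 0.66 (SE; Taar2) to 0.70 ± 0.54 (SE; Taar6), and 0 were called. None had odor pools apart from vehicle pools. Taar2 differed by -4.87, -6.02, -5.67 and -4.61 in odor and -3.23, -5.93, -5.72 and -2.98 in vehicle, so the S100a5-low side held it in both treatments. Taar6, Taar7a, Taar7d, Taar7f and Taar8b were also on the S100a5-low side in all pools, with vehicle means of -2.74, -2.26, -1.26, -2.17 and -1.11. Taar4, Taar9 and Taar3 were on the S100a5-high side in all 8 pools, with odor means of 2.13, 2.44 and 2.00 and vehicle means of 2.21, 2.49 and 1.32, as were Taar5, Taar7e and Taar8a at vehicle means of 1.26, 1.05 and 1.50. Taar1, Taar7b and Taar8c lay on both sides. Taar3 had the widest odor range, from 0.61 to 3.34, against 1.13 to 1.49 in vehicle. Taar1 was the dimmest, at a mean level of 4.13. This level and that of Taar5 (4.92) lay below the negative control median of 5.46. The mean levels of Taar8a, Taar8b and Taar8c, 5.70 to 5.75, lay just above it.

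Among other genes none was called in the shift, and the 8 with the smallest p were Mx1, Camk2n1, Mmp12, Il23r, Vmn2r93, Prex1, Olah and Lypd2. Mx1, an interferon-induced antiviral GTPase, had 0.62, 0.43, 0.47 and 0.41 in odor and -0.37, -0.41, -0.57 and -0.36 in vehicle. Its shift was 0.91 ± 0.17 (SE; limma adjusted p = 0.958), at a mean level of 4.11 that lay below the negative control median. Mmp12, a macrophage elastase, was on the S100a5-low side throughout, at -3.03 ± 0.27 in odor and -1.94 ± 0.33 in vehicle (SD, n = 4 each). Its S100a5-high levels, 3.08 to 3.78 in odor and 3.96 to 4.35 in vehicle, were all below the negative control median, and -0.72 of its shift of -1.10 came from that side. The other 5 had shifts of 1.01 (Il23r), -0.95 (Vmn2r93), 0.77 (Prex1), -0.76 (Olah) and -0.88 (Lypd2), each with limma adjusted p of 0.999. The mean levels of Il23r (4.46), Vmn2r93 (3.40) and Olah (3.94) also lay below that median. Without vehicle pool 3 the smallest p went to E2f8, a cell cycle transcription factor, and Bub1, a mitotic checkpoint kinase, at 2.38 and 1.44 (limma adjusted p = 0.957 for both). In vehicle pools 1, 2 and 4 E2f8 was at -6.54, -5.37 and -5.58 and Bub1 at -3.88, -3.53 and -2.81. In vehicle pool 3 E2f8 was at -4.16, inside its odor range of -4.27 to -2.70, and Bub1 at -1.19, above its odor range of -2.19 to -1.88. The S100a5-high levels of both genes, 3.81 to 5.33 for E2f8 and 3.15 to 4.42 for Bub1, all lay below the negative control median.

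No gene that neuronal activity raises in these neurons had a called shift. Of 7 measured genes of that list besides S100a5, 2 had positive and 5 negative shifts, with a median of -0.12 against 0.00 over all genes. Kirrel2, an adhesion molecule, differed by 1.08, 0.86, 0.87 and 0.92 in odor and 1.38, 1.41, 0.91 and 1.29 in vehicle. Lrrc3b differed by 1.40 ± 0.26 (SD, n = 4) in odor and 1.58 ± 0.34 (SD, n = 4) in vehicle. Both were thus on the S100a5-high side in every pool of both treatments. Of 3 genes that activity lowers, Kirrel3, Epha5 and Pcdh17, 0 were called, with shifts of 0.24, -0.16 and 0.09. Of 25 immediate early genes, the first transcripts to rise after stimulation, 0 were called and 16 had positive shifts, with a median of 0.05. Nr4a2 was the largest of them, at 0.87 ± 0.47 (SE), and stood on the S100a5-low side in all pools.

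The neuron lists held no called gene either. Mature neuron markers (14 genes) had a median of 0.01, transduction genes (15 genes) 0.06, synaptic genes (11 genes) 0.10, axon guidance genes (15 genes) 0.16 and immature neuron markers (12 genes) -0.06, with 0 called in each. Umodl1, a mature neuron marker, was the only one of the 14 whose pools did not overlap, at 0.54, 0.32, 0.32 and 0.33 in odor and 0.13, 0.24, 0.09 and 0.19 in vehicle. Odor pools lay above vehicle pools for 1.11% of all genes, so 1 such marker is no result about the list. Genes of receptor choice and export (12 genes) had a median of 0.00. Among these Ddit3, a stress transcription factor, was lowest at -0.44 ± 0.20 (SE). Markers of neurons with guanylyl cyclase D (7 genes) had a median of -0.09. Without vehicle pool 3 their median was 0.21, that of mature neuron markers -0.03 and that of transduction genes -0.01. These medians thus turned sign, and those of the other neuron lists kept theirs.

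No gene of the remaining lists was called. Sustentacular markers, from the glia-like supporting cells, had negative shifts in 11 of 11 genes with a median of -0.23, against 0.00 over all genes. Of these markers Sox2, a sustentacular and progenitor transcription factor, was lowest at -0.83 ± 0.36 (SE). Ciliated genes had negative shifts in 7 of 7 with a median of -0.19. Their fraction difference was -0.05 to 0.51 per pool, against -1.75 to -0.83 for sustentacular markers. Which cells gave the ciliated transcripts was not tested. The other way, 11 of 15 transduction and 9 of 11 synaptic genes had positive shifts. Genes of 1 cell type share their cells, so their signs are not independent. Microvillar markers (9 genes) had a median of -0.38, Bowman gland markers (8 genes) -0.13, myeloid markers (13 genes) -0.07, lymphoid markers (8 genes) 0.05 and the 2 measured red blood cell genes, Alas2 and Slc4a1, 0.60 and 0.77. Globose progenitors (7 genes) were at 0.01, horizontal basal cells (7 genes) at -0.02, endothelial cells (6 genes) at 0.19, fibroblasts (5 genes) at -0.05 and ensheathing glia (5 genes) at 0.03. Of these remaining lists, the medians of myeloid markers (0.07) and fibroblasts (0.01) turned sign without vehicle pool 3, and the others kept theirs. On the S100a5-low side, the log2 of the summed sustentacular levels ranged from 15.50 to 16.95 in odor and 15.81 to 16.80 in vehicle, and that of myeloid levels from 16.24 to 19.00 and 17.01 to 19.26. The ranges overlapped, and the part of these cells in the receptor shifts was not tested.

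**Figure D5:**
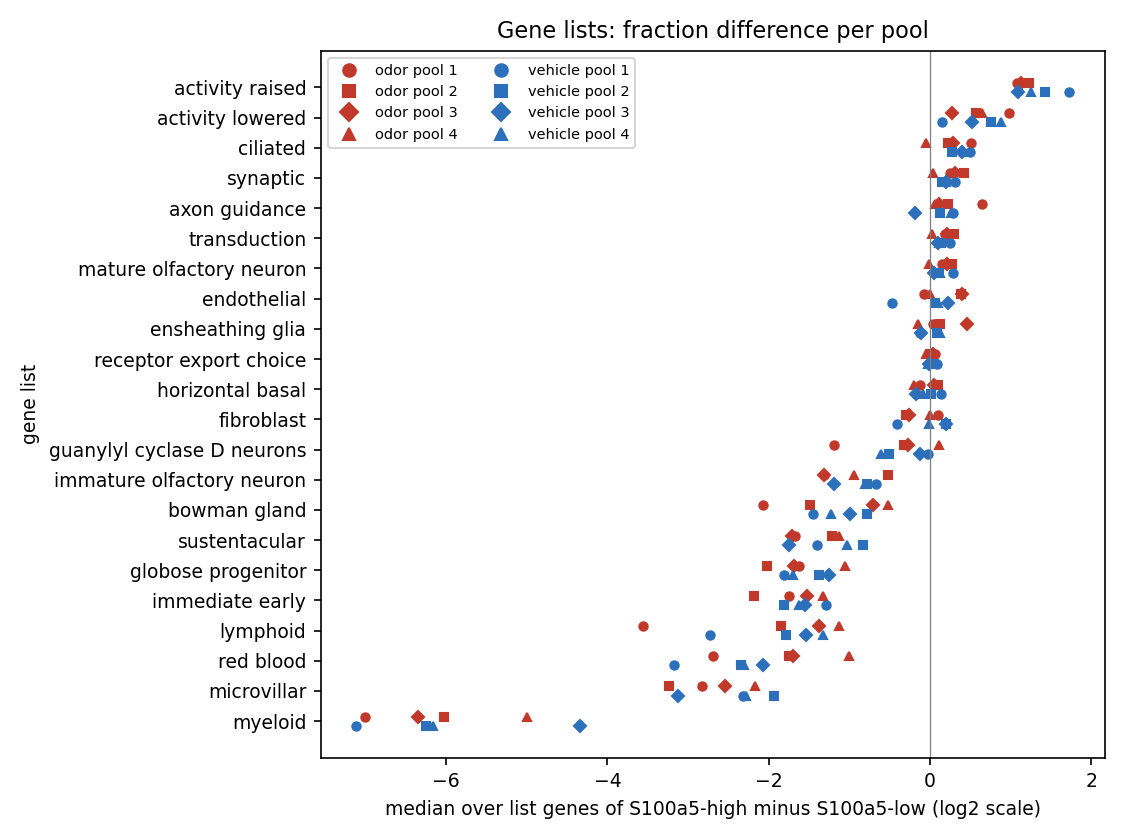
Median fraction difference (S100a5-high minus S100a5-low, log2 scale, horizontal axis) over the genes of each of 22 lists (vertical axis), with 1 marker for each pool, odor in red and vehicle in blue. Myeloid markers lie between -4.34 and -7.11, and the odor and vehicle pools of most lists are mixed.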

How the data were processed

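RNA of 16 sorted libraries was measured on 1-colour Affymetrix arrays. The authors deposited 1 table of log2 values. The submitters' processing notes name Affymetrix Expression Console; version, summarization and build: not given in the sources used here. Values ran from 1.69 to 19.4. A 16-bit scanner cannot exceed 16, so the range was widened in a way that is not known here, and differences are not folds. Of 28846 probe sets, 19572 had 1 gene symbol; for 55 genes with several, the one with the highest mean was used, which left 19505 genes. The 5222 negative controls had a median of 5.46, and 978 of 1106 receptors lay above it. Arrays give no read depth, and their number limits the precision.

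Groups followed the titles, and each pool difference ran from the library with less to the library with more S100a5. The pool differences of odor and vehicle were compared by limma's moderated two-sided test (version 3.58.1, R 4.3.3), with Benjamini-Hochberg adjustment over 19505 genes and a threshold of 0.05. Each side was fitted alone over its 8 libraries. The shares of receptors and lists have no p-value of their own. An exact permutation test of the per-pool spread and median over receptors was planned and is not printed. Both measures are given as a description. Members, gene lists and tests were chosen with earlier results of these data known. Named were S100a5, the 10 positive and 5 negative receptors with the smallest p (also in 7 pools), all Taar genes, the 8 other genes with the smallest p, and up to 3 genes per list; unnamed loci were not named. Deviations of same-numbered pools of the 2 treatments correlated over 0.1 in 1 of 4 numbers over all genes and in 4 of 4 over receptors. The labels do not say that numbers mark shared days or litters, so the fit has no such block, and the blocked value stands beside the call it changes. Alternatives covered pools left out, direction by title, scaling, dim genes, probe sets, blocks and variance models.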

Additional observations from a re-analysis of the deposited data

Results flagged for a closer look

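The odor effect differed between the S100a5-high and S100a5-low libraries for 2 genes by the limma test of that difference, which is the shift itself: Olfr221 at 5.06 and Olfr170 at 2.02. Among 50 sets of 4 pool values, 1 held a pool far from the others: Olfr1361 in vehicle, where pool 2 was at 2.44 and the other pools at 2.09 to 2.15. Chance flags about 1 in 20 such sets.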

How the results depend on the processing

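Over 17 alternatives the shift of Olfr221 was 4.53 to 5.41 and missed the threshold only when each pool was directed by title in place of S100a5 (4.53, limma adjusted p = 0.269), which turns vehicle pool 3 around. Olfr170 was 1.79 to 2.18 and lost its call in 9 of the 17. The count of called receptors, 2 in the report, was 1 without vehicle pool 3, 0 by title, and 1 to 2 with each pool left out in turn. By title, the libraries titled GFP- had 1 call, Camk2n1, in place of the 3 of the S100a5-high libraries. They include the S100a5-low library of vehicle pool 3. The uncalled shifts of Olfr750 (-1.41) and Olfr1361 (0.18) turned sign by title. Centring, quantile normalization, a filter on dim genes, mean probe sets and a robust variance model kept both calls, and a fit without the block of libraries within pools kept them too; an intensity trend added Olfr937, for 3 calls. In the shift, other genes had 0 calls in every fit.

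With the replicate number as a block across treatments, 1 receptor was called, Olfr221, and Olfr170 had adjusted p = 0.140 at the same shift of 2.02. The numbers correlated across treatments by -0.04, 0.02, 0.21 and 0.09 over all genes, where 1 of 4 odor pools matched its own number best, and by 0.15, 0.47, 0.49 and 0.34 over receptors, where 4 of 4 did. That is a hint from the data and not from the design. Receptors near the negative control median have little signal over background, and the small number of pools limits what shift can be called.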
